A study of Mus musculus with 12 samples.

Results

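The long-chain acyl-CoA synthetases considered here are the enzymes encoded by Acsl1, Acsl3, Acsl4 and Acsl5, and their transcripts were followed in dendritic cells (DCs) of the mouse spleen. The genes were chosen as a named family, and also because Acsl3 was higher in every miR-142 knockout (KO) array than in the wild-type (WT) arrays. The KO against WT values of these genes are therefore given as a description, with no test. Probe sets that carry the symbol of 1 gene alone were found for 3 of the 4 genes, and they number 7 of the 28898 probe sets with a single symbol. Acsl3 and Acsl4 have 3 such probe sets each and Acsl5 has 1, while the signal of Acsl1 was not analysed here.

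The study hybridised 12 Affymetrix arrays in 4 groups of 3, namely KO DCs given lipopolysaccharide (LPS), WT DCs given LPS, unstimulated KO DCs and unstimulated WT DCs. LPS is a component of the outer membrane of Gram-negative bacteria that activates DCs through Toll-like receptor 4. All mice were C57BL/6 males of 10 weeks and KO and WT mice were littermates. The DCs of 1 spleen, isolated by positive selection, made up each array. The sources used here do not give how the KO allele was made, nor the dose and duration of LPS. The sample descriptions name T cells where every other label names DCs. The samples were taken as DCs.

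Long-chain acyl-CoA synthetases join a free fatty acid to coenzyme A, using ATP, which traps the fatty acid in the cell and makes it usable. The product can be built into triglycerides, phospholipids and cholesterol esters, or passed to the carnitine shuttle and oxidised in mitochondria. ACSL1 is known for fatty acid handling in heart, liver and fat, and in macrophages it is induced by inflammatory signals. ACSL3 sits on the endoplasmic reticulum and on nascent lipid droplets and serves the synthesis of neutral lipids and phospholipids. ACSL4 prefers arachidonic acid and other polyunsaturated fatty acids, and the phospholipids it helps to make are the substrate of lipid peroxidation in ferroptosis. ACSL5 is found at mitochondria and the endoplasmic reticulum and is best known in intestine and liver.

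The knockout removes the microRNA miR-142, which is expressed across blood cells. A microRNA pairs with messenger RNAs mainly through its seed, the bases 2 to 8 from its 5′ end. Its 2 mature arms are shown because, by the labels, the KO mice lack them, with the seed in capitals, as RefSeq gives them on GRCm38.p6. The 5p arm lies at chr11:87756867-87756887 and the 3p arm at chr11:87756903-87756925, both on the plus strand.
mmu-miR-142a-5p: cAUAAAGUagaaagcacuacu
mmu-miR-142a-3p: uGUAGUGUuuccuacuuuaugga
The seeds of the arms differ. No probe set carried the symbol Mir142 alone, so the genotype labels were not checked against the deleted gene.

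The promoters of Acsl3 and Acsl4 are shown because these were the family members with a probe set that separated KO from WT arrays. Each sequence runs 250 bases before to 50 bases after a listed start of the gene on GRCm38.p6, on the strand of the gene. For Acsl3 this is the RefSeq start of the gene at 78657825. For Acsl4 it is a start within the gene. The gene begins at 142390802 on the minus strand, a base that the window does not reach. The Acsl3 sequence is chr1:78657575-78657874 on the plus strand and the Acsl4 sequence is chrX:142390486-142390785 on the minus strand. Capitals mark matches on either strand to the GC box (GGGCGG) and the CCAAT box (CCAAT), general promoter elements.
Acsl3 promoter: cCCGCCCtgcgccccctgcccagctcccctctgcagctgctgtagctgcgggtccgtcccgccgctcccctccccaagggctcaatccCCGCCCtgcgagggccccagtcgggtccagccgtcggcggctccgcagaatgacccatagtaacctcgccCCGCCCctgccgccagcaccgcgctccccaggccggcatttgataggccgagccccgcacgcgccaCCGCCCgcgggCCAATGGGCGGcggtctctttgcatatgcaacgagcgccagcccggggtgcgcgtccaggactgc
Acsl4 promoter: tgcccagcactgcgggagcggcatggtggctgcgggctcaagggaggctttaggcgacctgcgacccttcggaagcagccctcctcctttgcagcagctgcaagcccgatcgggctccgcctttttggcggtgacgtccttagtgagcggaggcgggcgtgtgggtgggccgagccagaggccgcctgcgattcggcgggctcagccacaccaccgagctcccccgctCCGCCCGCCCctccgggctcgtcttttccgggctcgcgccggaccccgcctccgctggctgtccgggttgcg
The Acsl3 window held 5 GC boxes and 1 CCAAT box, and the Acsl4 window held 2 overlapping GC boxes and no CCAAT box. The Acsl5 window (chr19:55253119-55253418, plus strand) held 1 CCAAT box and no GC box. It also lies within its gene, which starts at 55251861. Both shown windows held 33 CG dinucleotides, and their GC content was 74% for Acsl3 and 71.7% for Acsl4, against 53% for Acsl5. Among 32851 promoter windows of the same length, 35.7% held a GC box and 37.4% a CCAAT box. A nuclear receptor hexamer (AGGTCA) was in 16.3% of windows and a sterol regulatory element (TCACNCCAC) in 1.24%. Neither of these motifs matched in the Acsl3, Acsl4 or Acsl5 window, which says only that these letters are not in it. Acsl1 had 2 windows, both on the plus strand. The window at the gene's start (46471037), chr8:46470787-46471086, held 7 GC boxes, 0 CCAAT boxes and 0 sterol regulatory elements, with a GC content of 74%. The window chr8:46490716-46491015 lies within the gene and held 1 sterol regulatory element, 2 CCAAT boxes and 0 GC boxes, with a GC content of 50%.

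Values are the deposited log2 signals, normalised by the authors with RMA, and a difference of 1 is a 2-fold change. The array named KO LPS 2 stood apart. Its correlation with the other arrays was 0.935 to 0.958, against 0.966 to 0.991 among the others. Its 3′ minus middle difference for the Gapdh control probe sets was 3.04, against 1.53 to 1.86 on the other arrays, a measure used to judge RNA quality. Acsl values after LPS are also given without it. So are those of other named genes, apart from markers of other cells, where it changed the direction or the size by over 1.5 times. Of 16 measured DC markers (19 listed), 15 lay above the median gene level (3.14) in each of the 4 groups and Itgae lay below it. The median KO minus WT difference of the 16 was −0.21 after LPS, or −0.076 without KO LPS 2, and −0.031 unstimulated. Single markers departed from this median, and Cd209a averaged 3.75 in KO and 4.86 in WT DCs unstimulated. Of the 16, 7 had a higher mean in KO DCs unstimulated and 4 after LPS, and 0 passed (adjusted p under 0.05 in limma).

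Acsl3 was the family member whose brightest probe set (1428386_PM_at) stood higher in every KO array. After LPS its log2 signal was 4.13, 4.08 and 4.10 in KO DCs and 2.98, 3.34 and 2.95 in WT DCs. Without stimulation it was 4.35, 3.72 and 4.39 in KO DCs and 2.98, 2.80 and 2.85 in WT DCs. The lowest KO array of all (3.72, unstimulated KO 2) lay 0.378 above the highest WT array (3.34, WT LPS 2), so the 6 KO and 6 WT arrays did not overlap. The group means were 4.10 ± 0.025 in KO DCs and 3.09 ± 0.22 in WT DCs after LPS, and 4.15 ± 0.37 in KO DCs and 2.88 ± 0.094 in WT DCs without it (SD, n = 3 each). KO minus WT was 1.01 after LPS, a 2.02-fold difference, and 1.27 without stimulation, a 2.42-fold difference. Both WT means lay under the median gene level (3.14), so these folds rest on dim WT signals. Without KO LPS 2 the difference after LPS was 1.02.

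The other Acsl3 probe sets leaned the same way with smaller or overlapping differences. All 3 were designed from the same cDNA accession, so they are not independent measures of separate transcripts. On 1452771_PM_s_at the log2 signal after LPS was 3.72, 4.05 and 3.60 in KO DCs and 3.07, 3.18 and 2.27 in WT DCs. Unstimulated, it was 3.88, 3.35 and 3.58 in KO DCs and 3.15, 3.42 and 2.78 in WT DCs. After LPS every KO array was above every WT array, whereas without stimulation KO 2 lay below WT 2 by 0.0687, so the groups overlapped. KO minus WT was 0.95 after LPS, or 0.82 without KO LPS 2, and 0.49 unstimulated. The third probe set, 1428387_PM_at, was dim, with log2 signals of 2.00 to 2.34 in KO and 1.70 to 2.04 in WT DCs after LPS, and 1.76 to 2.17 in KO and 1.42 to 1.95 in WT DCs unstimulated. All its values lay under the median signal of every array (2.65 to 2.72), its groups overlapped, and KO minus WT was 0.27 after LPS, or 0.17 without KO LPS 2, and 0.32 unstimulated. Over the 3 probe sets, KO minus WT after LPS thus ran from 0.27 to 1.01.

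**Figure D1:**
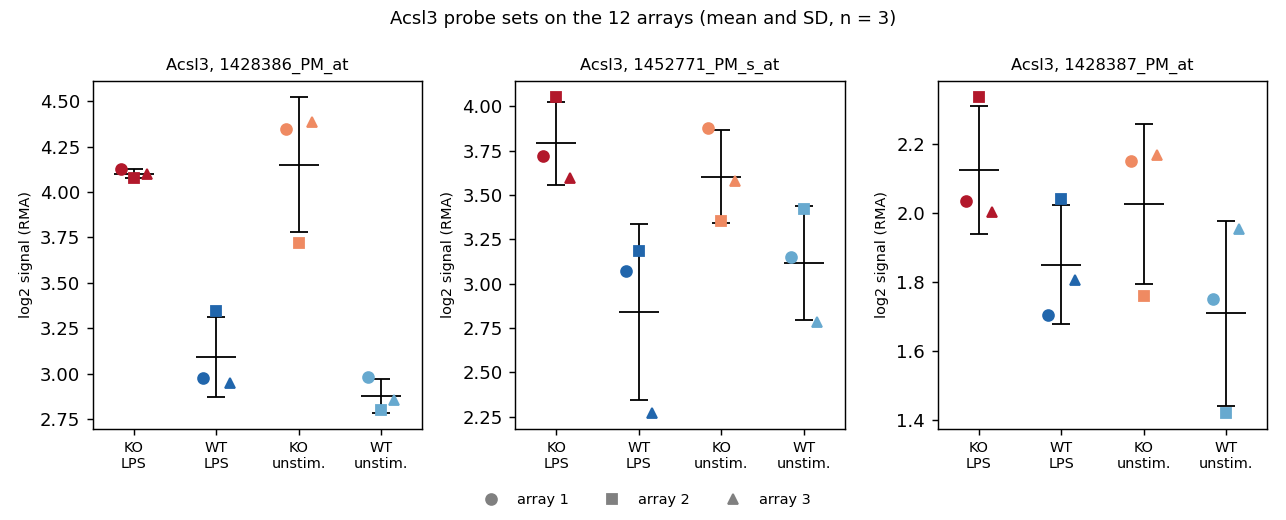
Log2 signal of the 3 Acsl3 probe sets in each of the 12 arrays, by group, with the group mean and SD (n = 3) as bars, array numbers by shape and log2 RMA signal on the vertical axis of each panel. On 1428386_PM_at the KO arrays lie between 3.72 and 4.39 and the WT arrays between 2.80 and 3.34, and on the other probe sets the genotypes lie closer or overlap.

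These are bulk preparations, in which fewer cells of a type and less RNA per cell cannot be told apart. Markers of other spleen cells moved with the genotype. All 15 measured neutrophil markers of 17 listed had a higher mean in KO DCs, and the granule protein genes Ngp, Camp and Lcn2 and the chitinase-like Chil3 rose both after LPS and without it (4 of 15, adjusted p under 0.05 in limma, where 0.252% of all genes rose after LPS and 0.181% unstimulated). Their summed linear signal ran from 2298 to 6904 in KO and 225 to 944 in WT DCs after LPS, and from 2428 to 8094 in KO and 243 to 1025 in WT DCs unstimulated. The neutrophil granule genes Elane and Prtn3 stayed below the median gene level in every group mean. The summed signal of 11 of 12 listed natural killer (NK) cell markers ran from 1092 to 1265 in KO and 254 to 381 in WT DCs after LPS, and from 1098 to 1293 in KO and 271 to 369 in WT DCs unstimulated, while Ncr1, a defining NK receptor, stayed below the median gene. Of these 11, Gzmb, Klra8 and Klra9 rose in both comparisons, and Eomes rose after LPS. All 11 means were higher in KO DCs unstimulated and 9 were after LPS. Prf1 (4.05 in KO and 4.47 in WT DCs) and Klrk1 (4.60 in KO and 4.87 in WT DCs) were lower after LPS. Unstimulated, Prf1 averaged 4.35 in KO and 4.32 in WT DCs, and Klrk1 5.05 and 5.01. The summed signal of 8 of 10 platelet markers ran from 155 to 672 in KO and 97.9 to 147 in WT DCs after LPS, and from 177 to 499.9 in KO and 90.7 to 139 in WT DCs unstimulated. Those of 9 of 12 B and plasma cell markers and 9 of 12 T cell markers overlapped after LPS and were lower in KO DCs unstimulated (420 to 626 in KO and 656 to 792 in WT DCs for B cells, and 119 to 125 in KO and 129 to 159 in WT DCs for T cells). These lists did not move as a whole, since 4 of the 9 means in each were higher in KO DCs unstimulated. Of the B and plasma markers, 1 of 9 fell in each comparison in limma, where 0.123% of all genes fell after LPS and 0.0409% unstimulated. Jchain averaged 3.77 in KO and 7.80 in WT DCs unstimulated. The sums of the macrophage and erythroid markers overlapped in both comparisons. All 7 measured erythroid markers had a higher mean in KO DCs after LPS and 6 did unstimulated, and 0 passed. Of 13 macrophage and monocyte markers, 4 had a higher mean in KO DCs after LPS and 6 unstimulated, and 1 fell in each comparison in limma. Mmp12 averaged 2.21 in KO and 3.98 in WT DCs after LPS, and 1.84 in KO and 4.07 in WT DCs unstimulated. RMA signals have no 0, so no marker can be listed at 0. The part of these cells in the Acsl3 and Acsl4 values was not tested.

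The 3 Acsl4 probe sets differed between genotypes by unequal amounts. Unstimulated, all 3 means were lower in KO DCs, and after LPS 2 of the 3 were, or all 3 without KO LPS 2. The brightest, 1433531_PM_at, had log2 signals of 5.47, 6.33 and 5.58 in KO DCs and 5.91, 5.54 and 5.46 in WT DCs after LPS. Unstimulated, they were 5.53, 5.44 and 5.64 in KO DCs and 5.71, 5.34 and 5.58 in WT DCs. The groups overlapped in both comparisons, and the highest value of all was that of KO LPS 2. KO minus WT was 0.16 after LPS, and −0.11 without KO LPS 2, so that array decided the sign. Without stimulation KO minus WT was −0.0041.

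The probe set 1451828_PM_a_at was the Acsl4 measure that separated the genotypes, and it was lower in KO. After LPS its log2 signal was 3.38, 3.16 and 3.10 in KO DCs and 4.02, 4.34 and 3.91 in WT DCs. Unstimulated, it was 3.45, 3.74 and 3.68 in KO DCs and 3.90, 3.78 and 4.01 in WT DCs. Every KO array lay below every WT array, by a gap of 0.532 after LPS and of only 0.0421 without stimulation, where KO 2 and WT 2 were the nearest pair. KO minus WT was −0.88 after LPS and −0.27 unstimulated, and −0.85 after LPS without KO LPS 2. The remaining Acsl4 probe set, 1418911_PM_s_at, had log2 signals of 3.99, 3.45 and 4.02 in KO DCs and 4.40, 4.25 and 3.71 in WT DCs after LPS, and 3.59, 3.80 and 4.07 in KO DCs and 4.07, 4.34 and 3.995 in WT DCs unstimulated. Its groups overlapped, with KO minus WT of −0.30 after LPS, or −0.12 without KO LPS 2, and −0.31 unstimulated.

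Acsl5 stood at nearly the same level in all 4 groups. Its only single-symbol probe set, 1428082_PM_at, had log2 signals of 6.57, 6.57 and 6.11 in KO DCs and 6.44, 6.38 and 6.19 in WT DCs after LPS. Unstimulated, they were 6.46, 6.60 and 6.26 in KO DCs and 6.45, 6.61 and 6.02 in WT DCs. The groups overlapped in both comparisons, and KO minus WT was 0.080 after LPS, or 0.0030 without KO LPS 2, and 0.081 unstimulated. In every group array 3 was the lowest, and the spread within a group (SD 0.13 to 0.30) exceeded the differences between group means.

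**Figure D2:**
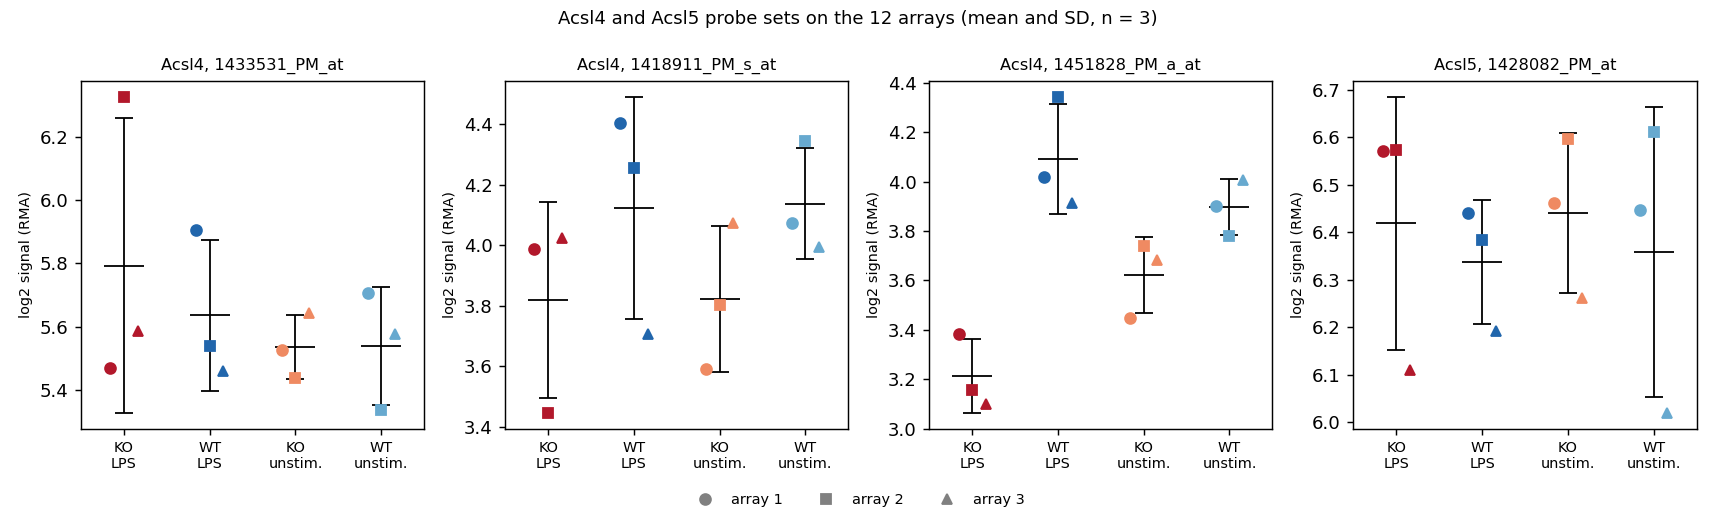
Log2 signal of the 3 Acsl4 probe sets and the Acsl5 probe set in each of the 12 arrays, by group, with the group mean and SD (n = 3) as bars, array numbers by shape and log2 RMA signal on the vertical axis of each panel. On 1451828_PM_a_at the KO arrays lie between 3.10 and 3.74 and the WT arrays between 3.78 and 4.34, while the groups overlap on the other Acsl4 probe sets and on Acsl5.

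Over the 7 probe sets, 2 were higher and 1 was lower in KO DCs with no overlap after LPS, and 1 was higher and 1 lower unstimulated. Of all 28898 probe sets, 6.89% were higher and 10.2% lower in KO DCs with no overlap after LPS, and 8.82% were higher and 7.7% lower unstimulated. When all 12 arrays were used, 1 probe set of Acsl3 was higher and 1 of Acsl4 was lower in all 6 KO arrays, against 1.6% of all probe sets higher and 1.15% lower. Since Acsl3 was chosen by this contrast, nothing is read from these counts.

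The order of the group means differed between the family members. For Acsl3 1428386_PM_at it ran unstimulated KO, KO LPS, WT LPS and unstimulated WT. The KO groups overlapped each other and the WT groups overlapped each other, so the order is clear only across genotypes. For Acsl4 1451828_PM_a_at it ran WT LPS, unstimulated WT, unstimulated KO and KO LPS, and of these neighbours the WT groups overlapped. For Acsl5 it ran unstimulated KO, KO LPS, unstimulated WT and WT LPS, with all 4 group means within 0.102, less than the SD of any group. For Acsl4 1433531_PM_at, KO LPS and WT LPS headed the order and all neighbours overlapped. Without KO LPS 2 the KO LPS mean of this probe set was 5.526 and stood last. WT LPS was at 5.636, unstimulated WT at 5.539 and unstimulated KO at 5.535. For Acsl5 the KO LPS mean without that array was 6.341, between unstimulated WT (6.359) and WT LPS (6.338).

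None of the Acsl probe sets passed the test for a change with LPS, in KO or in WT DCs. Over 28898 probe sets, limma with Benjamini-Hochberg adjustment called 0 of the 7 in KO DCs, where 0.301% of all probe sets passed, and 0 in WT DCs, where 0.128% passed (adjusted p under 0.05). At an unadjusted p under 0.05, 1 of the 7 passed in KO DCs, where 9.53% of all probe sets did, and 0 in WT DCs, where 4.93% did. No other tool was run. Adjusted p ran from 0.334 to 0.997 over the 7 in KO DCs and was 1.00 for each in WT DCs.

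Acsl3 1428386_PM_at changed by −0.049 with LPS in KO DCs (95% interval −0.41 to 0.31) and by 0.21 in WT DCs (−0.15 to 0.57). Changes of more than 0.57 in either direction lie outside both intervals of this probe set, but not outside those of Acsl3 1452771_PM_s_at. That probe set changed by 0.19 in KO DCs (−0.33 to 0.71) and by −0.28 in WT DCs (−0.80 to 0.25). The dim Acsl3 1428387_PM_at changed by 0.098 (−0.26 to 0.45) and 0.14 (−0.22 to 0.50). Acsl5 changed by −0.021 in KO DCs (−0.39 to 0.35) and by −0.021 in WT DCs (−0.39 to 0.35). For Acsl4 1433531_PM_at the change was 0.26 in KO DCs (−0.18 to 0.70) and 0.096 in WT DCs (−0.34 to 0.54). The change in KO DCs without KO LPS 2 was −0.0089 for this probe set, −0.038 for Acsl3 1428386_PM_at and −0.099 for Acsl5. These intervals leave room for modest changes in any of the 3 genes.

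The largest LPS difference in the family was that of Acsl4 1451828_PM_a_at in KO DCs. The KO LPS arrays (3.10 to 3.38) lay below the unstimulated KO arrays (3.45 to 3.74) without overlap, as did 7.87% of all probe sets. The change was −0.41 ± 0.14 (moderated SE, 95% interval −0.70 to −0.12), with an unadjusted p of 0.0102 and an adjusted p of 0.334 in limma, so it did not pass. Without KO LPS 2 it was −0.38. In WT DCs the change of the same probe set was 0.20 (−0.098 to 0.49) and the arrays overlapped. For the other probe sets the LPS difference ran from −0.049 to 0.26 in KO DCs and, with this one, from −0.28 to 0.21 in WT DCs.

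**Figure D3:**
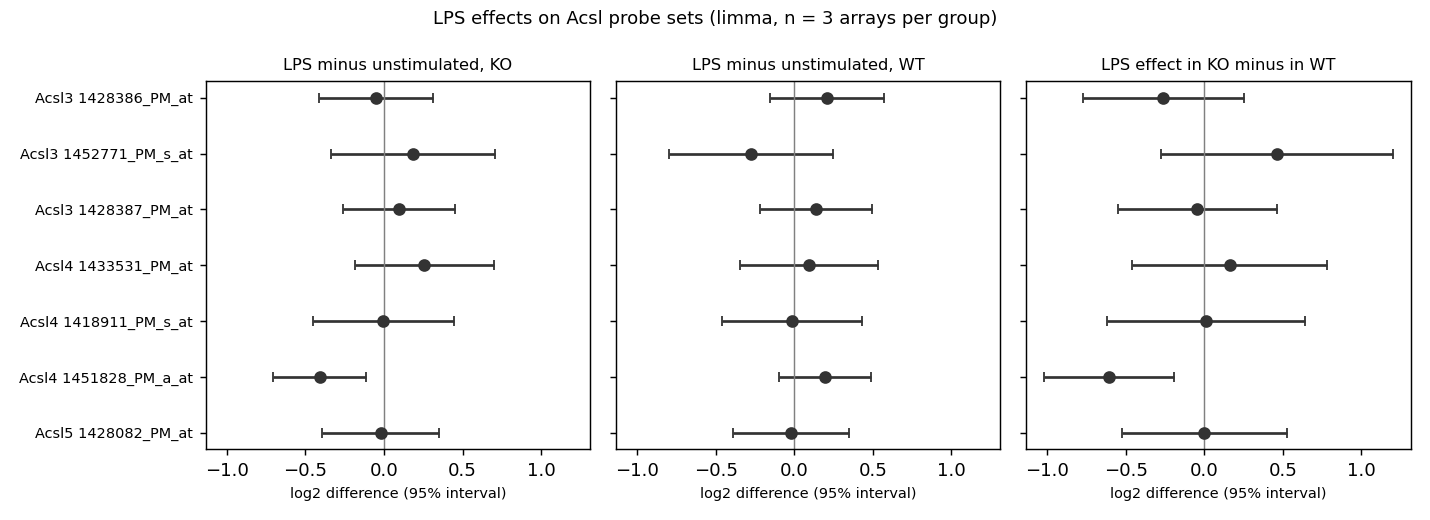
LPS minus unstimulated log2 difference of each Acsl probe set in KO and in WT DCs, and the difference between these effects (KO minus WT), as points with 95% moderated intervals from limma; the vertical line marks 0. All WT intervals cross 0, and in KO DCs and in the difference the interval of Acsl4 1451828_PM_a_at alone does not.

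Whether the response to LPS differed between genotypes was tested as the LPS change in KO DCs minus the change in WT DCs. None of the 7 probe sets passed in limma, and none of the 28898 did (0%). At an unadjusted p under 0.05, 1 of the 7 passed, against 3.95% of all probe sets. It was Acsl4 1451828_PM_a_at, with a difference of −0.61 ± 0.19 (95% interval −1.02 to −0.19), an unadjusted p of 0.00791 and an adjusted p of 0.957. Without KO LPS 2 it was −0.58. For Acsl3 1428386_PM_at the difference was −0.26 (−0.77 to 0.25), and for Acsl5 it was −0.00024 (−0.52 to 0.52). Without KO LPS 2 these were −0.25 for Acsl3 1428386_PM_at and −0.078 for Acsl5. The other probe sets of Acsl3 and Acsl4 did not all share the sign. Acsl3 1452771_PM_s_at had 0.46 (−0.28 to 1.20, or 0.18 to 0.63 with 1 array left out) and 1428387_PM_at −0.043 (−0.55 to 0.46). Acsl4 1433531_PM_at had 0.16 (−0.46 to 0.78), or −0.11 without KO LPS 2, and 1418911_PM_s_at 0.011 (−0.62 to 0.64). The KO minus WT comparisons after LPS and unstimulated share no arrays, but each LPS effect shares its arrays with them.

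The probe sets of a gene were compared by Pearson correlation over the 12 arrays, as a description, since all probe sets are read on the same arrays and the KO and WT arrays form separate clusters. The brightest Acsl3 probe set correlated with the others at 0.771 (1452771_PM_s_at) and 0.755 (1428387_PM_at). After group means were removed these values were 0.451 and 0.666. The brightest Acsl4 probe set correlated at −0.305 with 1418911_PM_s_at and −0.289 with 1451828_PM_a_at, and at 0.372 and 0.204 without KO LPS 2. That array was the highest on 1433531_PM_at and the lowest of all arrays on 1418911_PM_s_at. Acsl3 1428386_PM_at and Acsl4 1451828_PM_a_at, which differed between genotypes in opposite directions, correlated at −0.713, and at 0.137 once group means were removed.

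The genes most like each member were sought among 8742 genes whose highest group mean was above the median gene, by Pearson r over the 12 arrays. For Acsl3 they were Scd1 (r 0.963), which makes monounsaturated fatty acids from saturated ones, Dmxl1 (0.948), which is linked to acidification by the vacuolar proton pump, the NK cell receptor Klra8 (0.942) and Wdfy1 (0.941), an adaptor of Toll-like receptor signalling. Once group means were removed, r was 0.690 for Scd1, 0.691 for Dmxl1, 0.306 for Klra8 and 0.789 for Wdfy1. All 4 had higher means in KO DCs, as the likeness itself requires. Klra8 is on the NK marker list, and its mean log2 signal was 6.87 in KO and 3.05 in WT DCs after LPS, and 6.57 in KO and 2.89 in WT DCs unstimulated. Leaving out any 1 array kept r for these genes at 0.930 or more.

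**Figure D4:**
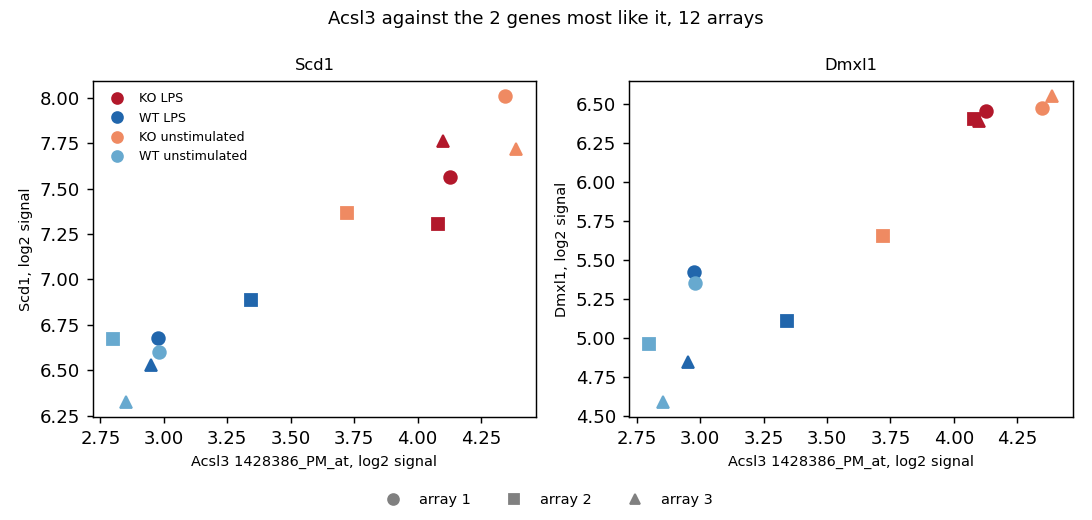
Log2 signal of Scd1 and of Dmxl1, the 2 genes most like Acsl3 (vertical axes), against the log2 signal of Acsl3 1428386_PM_at (horizontal axes), with 1 point per array, groups by colour and array numbers by shape. The KO arrays lie apart from the WT arrays along the Acsl3 axis, and r is 0.963 for Scd1 and 0.948 for Dmxl1.

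For Acsl4 1433531_PM_at the most similar genes were Mdfic (0.926), Aga (0.922), a lysosomal enzyme that breaks down glycoproteins, Noc4l (0.920), a ribosome assembly factor, and Nipsnap3b (0.915). These values leaned on KO LPS 2, the array that stood apart, in which Acsl4 1433531_PM_at and all 4 genes had their highest signal. Without that array r was 0.729 for Mdfic, 0.719 for Aga, 0.786 for Noc4l and 0.683 for Nipsnap3b. For Acsl5 they were the autophagy enzyme Atg3 (0.879), fibronectin Fn1 (0.872), the C-type lectin Clec4a2 (0.851) and the paired receptor Pilrb1 (0.840). With group means removed, r was 0.895 for Atg3, 0.971 for Fn1, 0.872 for Clec4a2 and 0.887 for Pilrb1. The lowest r with any 1 array left out was 0.865 for Atg3, 0.837 for Fn1, 0.775 for Clec4a2 and 0.793 for Pilrb1.

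Around the Acsl enzymes, 126 of 140 listed genes of fatty acid handling were measured, in 7 lists. Unstimulated, 1 of them rose in KO DCs and 0 fell, where 0.181% of all genes rose and 0.0409% fell. After LPS, 0 rose and 0 fell in KO against WT DCs, where 0.252% and 0.123% of all genes did so, with 29 of the 126 (23.0%) at an unadjusted p under 0.05, where 13.8% of all genes were. Unstimulated, 14 (11.1%) were, against 8.74% of all genes. The median KO minus WT difference of the 126 was −0.037 after LPS (−0.026 over all genes), or −0.013 without KO LPS 2 (−0.016 over all genes), and 0.018 unstimulated (−0.00058 over all genes).

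The gene that rose was Scd1, stearoyl-CoA desaturase. Unstimulated, its log2 signal was 8.01, 7.37 and 7.72 in KO DCs and 6.60, 6.67 and 6.33 in WT DCs. After LPS it was 7.56, 7.30 and 7.76 in KO DCs and 6.68, 6.89 and 6.53 in WT DCs. Every KO array was above every WT array in both comparisons. KO minus WT was 1.16 ± 0.17 unstimulated (adjusted p 0.0265 in limma) and 0.85 ± 0.17 after LPS (adjusted p 0.0726), and the unstimulated call was lost when any 1 of 6 arrays was left out (unstimulated WT 1, 2 or 3, WT LPS 1, unstimulated KO 1 or 3, adjusted p 0.0524 to 0.157). Without KO LPS 2 the difference after LPS was 0.97 (adjusted p 0.0387 in limma). Whether the genotype differences with and without LPS differed was tested as the same interaction, which gave −0.32 (95% interval −0.85 to 0.22, adjusted p 0.957).

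Members of the other lists did not pass between genotypes. Of 18 measured relatives of the family, 0 passed in either comparison, among them the mitochondrial acetyl-CoA synthetase Acss1 (KO minus WT −0.30 after LPS and −0.064 unstimulated) and the fatty acid transporter Slc27a1 (−0.17 after LPS, or −0.0067 without KO LPS 2, and −0.095 unstimulated). In the list of 21 genes of uptake, binding and acyl-CoA handling, Fabp5 had mean log2 signals of 8.75 in KO and 8.09 in WT DCs after LPS and Fabp4 of 8.08 in KO and 7.30 in WT DCs, with adjusted p of 0.219 and 0.245 in limma. Both encode fatty acid binding proteins. Among 30 genes of glycerolipid synthesis and lipid droplets, the acyltransferase Agpat4 averaged 6.46 in KO and 7.12 in WT DCs after LPS (adjusted p 0.183), and the phosphatidate phosphatase Lpin2 averaged 6.78 in KO and 7.03 in WT DCs.

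In the fatty acid synthesis list of 19 genes, apart from Scd1, the elongase Elovl5 averaged 7.72 in KO and 7.62 in WT DCs after LPS, and 7.58 in KO without KO LPS 2. The 20 genes of phospholipid remodelling and lipid peroxidation, the use to which ACSL4 products are put, included ferritin heavy chain Fth1, with 10.07 in KO and 9.91 in WT DCs in both conditions. All 8 carnitine shuttle genes were measured and 0 passed, and the carnitine carrier Slc25a20 averaged 6.51 in KO and 6.10 in WT DCs after LPS, and 6.08 in KO without KO LPS 2. The 10 measured lipid-sensing nuclear receptors and coactivators included the liver X receptor Nr1h3, at 5.48 in KO, or 5.63 without KO LPS 2, and 5.45 in WT DCs after LPS. Outside the naming rule, and chosen after their values were seen, 3 further genes had an adjusted p under 0.1 in limma without passing. Gpat3, which starts glycerolipid synthesis, had a KO minus WT difference of 1.26 unstimulated (adjusted p 0.0745). After LPS the mitochondrial aminotransferase Got2, listed as a fatty acid binding protein, had one of −0.73 (adjusted p 0.0782) and the lipoxygenase Alox15 one of 1.09 (adjusted p 0.0997). Without KO LPS 2 the adjusted p in limma was 0.140 for Got2 and 0.163 for Alox15. Larger differences with a higher adjusted p were those of G0s2 (2.05 after LPS, adjusted p 0.186) and the family relative Acss2 (1.38 after LPS, adjusted p 0.156, or 0.83 without KO LPS 2). Unstimulated, these were 1.59 and 0.74.

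**Figure D5:**
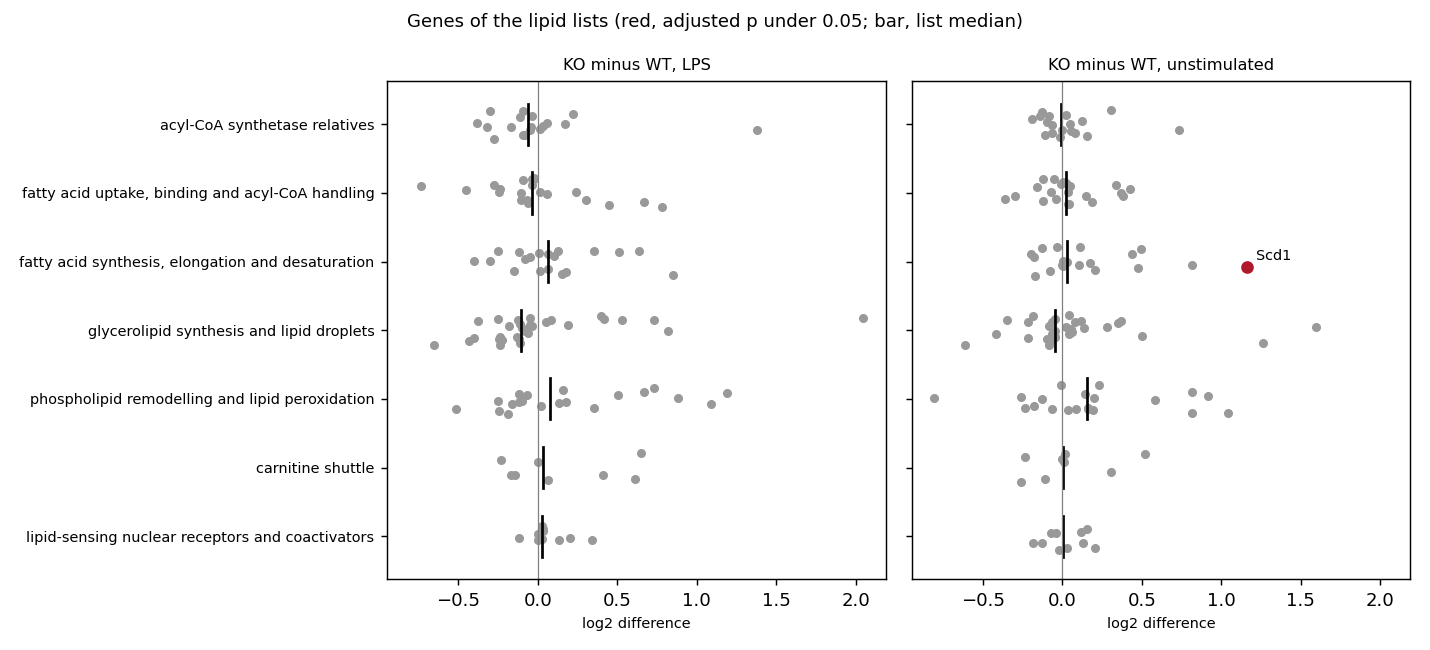
KO minus WT log2 difference of every measured gene in the 7 lists, after LPS and unstimulated, with 1 point per gene and the median of each list as a bar; genes with adjusted p under 0.05 are red. Scd1 unstimulated (1.16) is the only red gene, and the list medians run from −0.10 to 0.15.

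With LPS, 1 of the 126 genes rose and 0 fell in KO DCs, where 0.328% of all genes rose and 0.0292% fell. It was Ptgs2, the inducible cyclooxygenase that turns arachidonic acid into prostaglandins, with log2 signals of 7.90, 8.09 and 7.52 in KO LPS arrays and 6.26, 5.18 and 5.61 in unstimulated KO arrays. The change was 2.16 ± 0.22 (adjusted p 0.00102 in limma), and 2.03 without KO LPS 2. It did not pass when the KO groups alone were fitted (adjusted p 0.108). At an unadjusted p under 0.05, 13 of the 126 were found in KO DCs, against 9.49% of all genes. In WT DCs 0 of the 126 passed in limma, where 0.123% of all genes rose and 0% fell, and 3 had an unadjusted p under 0.05, against 5.09% of all genes. Ptgs2 was 7.72, 7.74 and 7.66 in WT LPS arrays and 6.59, 6.37 and 6.50 in unstimulated WT arrays, a change of 1.22 ± 0.22 (adjusted p 0.0680). With the array number within genotype as a replicate block, Ptgs2 passed in WT DCs (adjusted p 0.0443 as a fixed and 0.0309 as a random block in limma), as it did when the WT groups alone were fitted (0.00158). The difference between the LPS effects of KO and WT DCs was 0.94 for Ptgs2 (adjusted p 0.957), and 0 of the 126 passed that test in limma, with 4 at an unadjusted p under 0.05, against 3.71% of all genes.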

How the data were processed

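DCs were taken from single spleens by positive selection, and RNA was amplified with oligo(dT) and random primers, labelled and hybridised, per the labels' protocols. The deposited values are log2 signals that the authors normalised with RMA, per the submitters' processing notes. No source used here gives the RMA version. The table held 45141 probe sets, of which 104 controls, 551 with several symbols and 15588 without a symbol were left out. The number of arrays limits the precision.

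The members, lists and tests were chosen with earlier results of these data known. The fit used 4 group means, with limma 3.58.1 (lmFit and eBayes) in R 4.3.3 over 28898 probe sets, and Benjamini-Hochberg adjustment over all of them (threshold 0.05, 12.4 total degrees of freedom). The probe set with the highest mean stands for a gene (17097 genes). Levels of different probe sets are not compared. Named list genes were up to 3 called ones with the largest change and up to 2 uncalled ones with the highest level in each list and contrast. Likeness was ranked by r, leaving out predicted gene models, with 4 genes named per member. Promoters and microRNAs came from RefSeq tables (GRCm38.p6). The fit was tested on simulated data.

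After group means were removed, LPS and unstimulated arrays of the same number correlated at 0.263, 0.250 and 0.387 in KO DCs and 0.352, 0.220 and 0.385 in WT DCs, against −0.292 to −0.047 for different numbers, so the numbers were treated as pairs within a genotype in an alternative. Across genotypes, same-numbered arrays correlated at −0.0039 to 0.197 and were blocked by number in 1 alternative only. The labels name a mouse for each array and do not say whether LPS and unstimulated arrays of a number came from the same mouse, so p-values measure the spread between these arrays. Without KO LPS 2, values of other named genes were added after seeing the data.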

Additional observations from a re-analysis of the deposited data

How the results depend on the processing

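The results were recomputed under 19 to 24 alternatives each, 12 of which left out an array. Of 1053 values for 48 results, 961 kept their direction and side of the threshold or stayed close, and in all alternatives that gave a count 0 of the 7 Acsl probe sets passed with LPS or in the difference between LPS effects. Most reversals were of Acsl changes near 0. With the mean of a gene's probe sets, Acsl3 KO minus WT was 0.75 after LPS and 0.69 unstimulated, Acsl4 was −0.34 after LPS, the LPS change in KO DCs was 0.079 for Acsl3 and −0.052 for Acsl4, and the difference between LPS effects was 0.053 and −0.14. With quantile normalization the LPS change in KO DCs of Acsl4 1418911_PM_s_at was 0.036 and the Acsl5 difference between LPS effects 0.018; with median centring these were 0.032 and 0.041, and the Acsl5 change in KO DCs was 0.014. With array weights the LPS change in KO DCs was −0.0034 for Acsl3 1428387_PM_at and 0.19 for Acsl4 1418911_PM_s_at (0.025 in WT DCs), the difference between LPS effects was −0.043 for Acsl4 1433531_PM_at, and 2 pathway genes passed between genotypes unstimulated and 1 after LPS (Scd1, adjusted p 0.0362 in limma). With only the 2 groups compared, 0 pathway genes passed with LPS in KO DCs (Ptgs2 adjusted p 0.108) and 1 in WT DCs (Ptgs2, 0.00158). With the replicate block within genotype, fixed or random (consensus correlation 0.162), 1 pathway gene passed with LPS in WT DCs. With the replicate block over all arrays, 5 passed between genotypes unstimulated (Scd1, Alox15, Tecr, Lpcat2 and Gpat3), 3 after LPS (Scd1, adjusted p 0.0491, Got2 and Alox15) and 1 with LPS in WT DCs (Ptgs2 0.0437). Among the Acsl probe sets with LPS and the 126 pathway genes, the block changed no other call; blocks were not run on the markers or the genes near Acsl3. The cause of these moves was not tested.

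With 1 array left out, Acsl probe sets that did not overlap between genotypes numbered 3 to 4 after LPS and 2 to 4 unstimulated (4 without unstimulated KO 2). Pathway genes that passed numbered 0 to 5 after LPS (5 without KO LPS 3) and 0 to 2 unstimulated between genotypes, and 1 to 2 in KO DCs and 0 to 1 in WT DCs with LPS. Scd1 unstimulated did not pass without unstimulated WT 1, 2 or 3, WT LPS 1, or unstimulated KO 1 or 3, with KO minus WT from 1.01 to 1.33 over all left-out arrays. After LPS it passed without KO LPS 2 (adjusted p 0.0387), with KO minus WT from 0.74 to 0.97. Ptgs2 in WT DCs passed without unstimulated KO 1 or 2 or without KO LPS 2 (adjusted p 0.0137 to 0.0248), with changes from 1.16 to 1.27 over all left-out arrays. The LPS change in KO DCs ran from −0.26 to 0.069 for Acsl3 1428386_PM_at, −0.036 to 0.17 for 1428387_PM_at, −0.0089 to 0.42 for Acsl4 1433531_PM_at, −0.12 to 0.18 for 1418911_PM_s_at and −0.11 to 0.13 for Acsl5. In WT DCs it ran from −0.45 to 0.0098 for Acsl3 1452771_PM_s_at, −0.0029 to 0.26 for 1428387_PM_at, −0.039 to 0.18 for Acsl4 1433531_PM_at, −0.16 to 0.19 for 1418911_PM_s_at and −0.19 to 0.10 for Acsl5. The difference between LPS effects ran from −0.18 to 0.10 for Acsl3 1428387_PM_at, −0.11 to 0.32 for Acsl4 1433531_PM_at, −0.20 to 0.20 for 1418911_PM_s_at and −0.13 to 0.17 for Acsl5. For Acsl3 1428386_PM_at, KO minus WT stayed between 0.94 and 1.14 after LPS and between 1.16 and 1.49 unstimulated. The filter on dim probe sets removed Acsl3 1428387_PM_at, and the fixed block within genotype allows no KO against WT value.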

Other observations

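Genes next to Acsl3 on chromosome 1 were examined after the values were seen. Of the 20 nearest measured genes, 10 on each side, Utp14b and Wdfy1 were higher in all 6 KO arrays than in all 6 WT arrays and Dock10 was lower, which is 15% against 3.01% of all 17097 genes. Acsl3 was chosen by this same contrast, and Wdfy1 had been named for its likeness to Acsl3, so nothing is read from this share. With all arrays, none of the 20 passed between genotypes in limma in either condition, where 64 of all genes passed after LPS and 38 unstimulated. Utp14b lies inside the span of Acsl3 on the same strand, and whether its probe set also binds Acsl3 transcripts was not tested. Its log2 signal was 3.69, 3.28 and 3.64 in KO DCs and 2.95, 3.00 and 2.75 in WT DCs after LPS, and 3.75, 3.37 and 3.68 in KO DCs and 3.21, 3.08 and 3.03 in WT DCs unstimulated. KO minus WT was 0.64 after LPS (adjusted p 0.0868 in limma, or 0.77 and 0.0301 without KO LPS 2, added after seeing the data) and 0.49 unstimulated (adjusted p 0.267). Over the 12 arrays it correlated with Acsl3 at 0.887, and at 0.701 once group means were removed.

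Wdfy1, also among the genes most like Acsl3, is 4 measured genes away. Its mean log2 signal was 4.60 in KO and 4.15 in WT DCs after LPS (adjusted p 0.0937 in limma) and 4.58 in KO and 4.23 in WT DCs unstimulated (adjusted p 0.282). Dock10, a regulator of small GTPases, averaged 5.86 in KO, or 6.27 without KO LPS 2, and 6.65 in WT DCs after LPS and 6.01 in KO and 6.54 in WT DCs unstimulated. The other genes most like Acsl3 are on chromosomes 6, 18 and 19.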
